A study of Mus musculus with 9 samples.

Results

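The miR-29 family comprises 7 mature microRNAs (miRNAs) in the mouse table, chosen by name from 946 rows: the 3p arms mmu-miR-29a-3p, mmu-miR-29b-3p and mmu-miR-29c-3p, and the 5p arms mmu-miR-29a-5p, mmu-miR-29b-1-5p, mmu-miR-29b-2-5p and mmu-miR-29c-5p (the prefix, which stands for mouse, is left out from here on). All 7 had reads, and 6 passed the filter on low counts. miR-29b-1-5p, with 29 reads in all 9 libraries together, did not pass and was not tested. Small RNA from liver of wild-type C57 BL6 mice, 8 weeks old, was sequenced in 3 groups of 3 libraries. Control mice were given saline. APAP mice were given 500 mg/kg acetaminophen (APAP, a painkiller that injures the liver at high dose) into the peritoneum. The dmPGE2+APAP mice received that dose 1 h after 300 µg/kg dmPGE2, a stable prostaglandin E2 analog, given by the same route. Livers were taken 6 h after APAP. No group had dmPGE2 alone, and no vehicle for dmPGE2 is named, so its effect can be read only on top of APAP. Whether the 3 libraries of a group are 3 animals is not spelled out in the labels, so a p-value here compares groups against library-to-library spread only, and that spread may be technical.

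A miRNA hairpin is cut by Drosha and Dicer into a short duplex with a 5p and a 3p arm. One arm, the guide, is loaded into Argonaute and represses messenger RNAs that pair with its seed, and the other, the passenger, is mostly degraded. In the miR-29 family the 3p arms are the known guides. Their best-known targets are messages of the extracellular matrix, among them fibrillar and basement-membrane collagens, elastin and fibrillin, and miR-29 is known to fall in stellate cells as a fibrotic liver lays down collagen.

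The 3p arms are shown first because their shared seed makes them 1 family for target pairing. The sequences are RefSeq's (GRCm38.p6), which held all 7 members, and are written 5′ to 3′ with the seed, bases 2 to 8, in capitals.
miR-29a-3p: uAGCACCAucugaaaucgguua
miR-29b-3p: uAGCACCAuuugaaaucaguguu
miR-29c-3p: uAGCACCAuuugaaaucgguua
Among 1679 mature mouse miRNAs in the RefSeq table, these 3 were the only ones with the seed AGCACCA. Counting positions from 1 at the 5′ end, miR-29a-3p and miR-29c-3p differed by 1 base, C10U, and were identical at the other 21. miR-29b-3p differed from miR-29c-3p at G18A, U21G and A22U, and it is 23 bases long where the others are 22. It ends in aguguu, the motif known to carry miR-29b into the nucleus. The mismatch setting used in mapping is not given in the sources used here, so reads of miR-29a-3p and miR-29c-3p with an error at base 10 could have been counted for the other.

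The 5p arms do not share that seed, nor any one seed among themselves.
miR-29a-5p: aCUGAUUUcuuuugguguucag
miR-29c-5p: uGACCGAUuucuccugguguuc
miR-29b-1-5p: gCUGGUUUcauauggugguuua
miR-29b-2-5p: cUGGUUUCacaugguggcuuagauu
The annotated 5p arms of the miR-29b hairpins start 1 base apart on the shared stem, so their seeds are shifted by 1 base. With that offset they matched at 19 of 21 bases and differed at U11C and U19C, numbered on miR-29b-1-5p.

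The family is made from 4 hairpins at 2 loci. Mir29a (chr6:31062660-31062747) and Mir29b-1 (chr6:31063023-31063093) lie 275 bases apart on the minus strand of chromosome 6, overlapping no other gene of the RefSeq table, with the long noncoding RNA gene Lncpint as the nearest neighbour. Mir29b-2 (chr1:195037040-195037120) and Mir29c (chr1:195037547-195037634) lie 426 bases apart on the plus strand of chromosome 1, within the span of the long noncoding RNA gene A330023F24Rik. Coordinates are those of GRCm38.p6, which mm10 shares. The mature miR-29b-3p sequence is the same from both loci, so its reads cannot be assigned to either. The hairpins of miR-29a and miR-29c are shown because their arms were recovered in very different proportions (0.0686 to 0.212 reads of the 5p arm per 100 of the 3p arm for miR-29a, and 24.1 to 72.9 for miR-29c), with both mature arms in capitals.
Mir29a hairpin: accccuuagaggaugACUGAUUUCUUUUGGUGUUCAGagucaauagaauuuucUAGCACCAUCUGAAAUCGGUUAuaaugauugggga
Mir29c hairpin: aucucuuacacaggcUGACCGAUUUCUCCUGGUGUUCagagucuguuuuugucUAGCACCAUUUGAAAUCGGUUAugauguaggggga

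Library totals, summed over all 946 miRNA rows, were 1038799 to 10483460 reads. The mean was 9271068 ± 1502062 in Control (SD, n = 3), 5897177 ± 2110546 with APAP and 4255878 ± 3006710 with dmPGE2 before it, and dmPGE2+APAP replicate 2 was the shallowest. Levels are given as CPM, counts per 1000000 reads after TMM scaling, which corrects each library total for its composition. Over the 9 libraries miR-122-5p averaged 199127 CPM and miR-122b-3p 199111 CPM, so the same reads may stand in both rows. Any such reads enter the library totals more than once, and shares or scalings that use those totals carry this limit. A library with 0 reads of a miRNA allows a level of up to 3 reads, which is 2.56 CPM in dmPGE2+APAP replicate 2 and between 0.276 and 0.717 CPM in the others, for counting error only. The hepatocyte markers miR-122-5p, miR-192-5p, miR-148a-3p and miR-802-5p were present in every library, with a summed level of 369880 to 520647 CPM in Control, 324753 to 384059 with APAP and 348932 to 387717 in dmPGE2+APAP. In whole tissue, fewer cells of a type and less of an RNA per cell cannot be told apart.

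miR-29a-3p made up nearly all of the family. Over the 9 libraries it averaged 1024.1 CPM and ranked 33 of 946 rows. miR-29c-3p followed at 37.7 CPM (rank 128), miR-29b-3p at 24.7 (rank 148), miR-29c-5p at 21.3 (rank 161), miR-29b-2-5p at 2.08 (rank 320), miR-29a-5p at 1.40 (rank 346) and miR-29b-1-5p at 0.453 (rank 435). These sequences are 22 to 25 bases long, so length hardly enters the comparison, although adapter ligation is known to favour some miRNA ends over others. miR-29a-3p lay above miR-29c-3p, and miR-29c-5p above miR-29b-2-5p, with no overlap over the libraries. miR-29c-3p lay above miR-29b-3p in 9 of 9 libraries, although the lowest miR-29c-3p level (29.9 CPM) was under the highest of miR-29b-3p (30.7). miR-29b-3p and miR-29c-5p stood in this order in only 6 of 9 libraries, and so did miR-29b-2-5p and miR-29a-5p, so neither pair is separated beyond its spread.

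**Figure D1:**
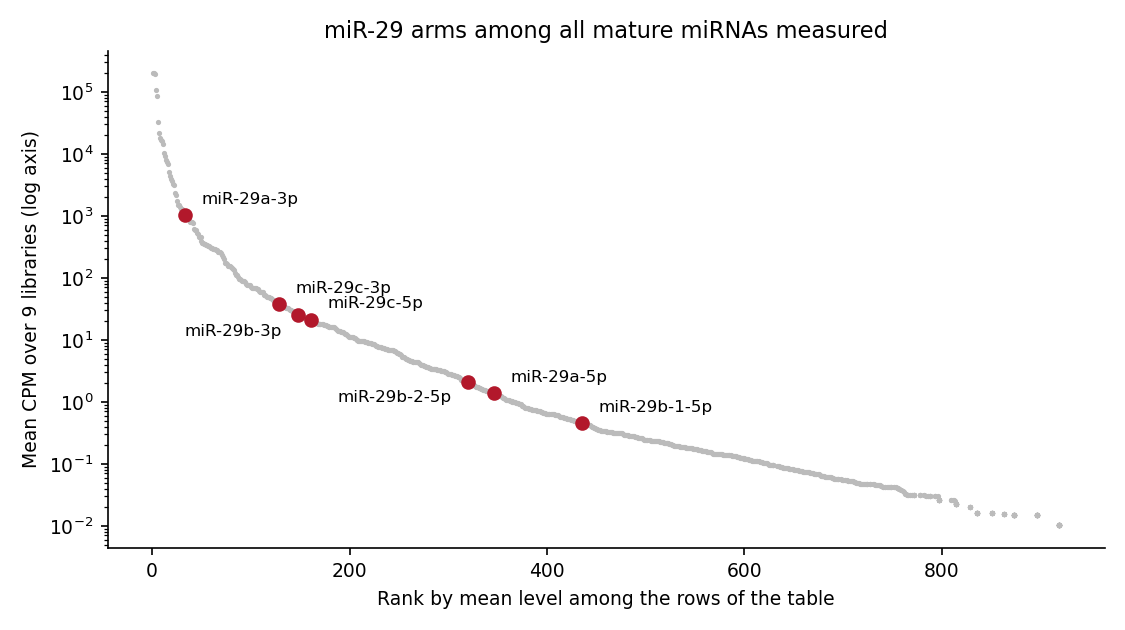
Mean CPM over the 9 libraries (log axis) against rank for the rows of the table, with the 7 miR-29 arms in red. miR-29a-3p stands at rank 33, and the other guide arms stand at ranks 128 and 148.

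Within the reads of the family, miR-29a-3p took 92.4% ± 0.811 (SD, n = 3) in Control, 92.3% ± 0.305 with APAP and 91.6% ± 0.866 in dmPGE2+APAP. miR-29c-3p took 3.16% ± 0.395, 3.35% ± 0.333 and 3.72% ± 0.291, and miR-29b-3p took 1.85% ± 0.241, 2.56% ± 0.454 and 2.30% ± 0.462. The family was therefore close to 1 sequence in all 3 groups. The number of miR-29c-3p reads per 100 reads of miR-29a-3p, a ratio within each library that needs no scaling, was 3.42 ± 0.459 in Control, 3.62 ± 0.370 with APAP and 4.06 ± 0.351 in dmPGE2+APAP. The groups overlapped, with exact two-sided permutation p of 0.6 for APAP against Control, 0.3 for dmPGE2+APAP against APAP and 0.2 for dmPGE2+APAP against Control (n = 3 each, smallest possible p 0.1).

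For miR-29a-3p, neither treated group differed from Control beyond the spread between libraries. It stood at 1040, 1117 and 940 CPM in Control replicates 1, 2 and 3, at 1204, 1007 and 880 with APAP, and at 1067, 988 and 974 in dmPGE2+APAP. APAP replicates 1 and 3 were the highest and lowest of all 9, and the groups overlapped. The log2 change was -0.0023 (SE 0.18, 95% interval -0.39 to 0.39) for APAP against Control, -0.03 (SE 0.18, -0.42 to 0.36) for dmPGE2+APAP against APAP and -0.03 (SE 0.18, -0.42 to 0.36) for dmPGE2+APAP against Control. The Benjamini-Hochberg adjusted p (edgeR, quasi-likelihood) was 0.997, 0.989 and 0.965.

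The summed reads of the 3 guide arms depended on the scaling. As a share of all reads they were 0.0991%, 0.0889% and 0.102% in Control, 0.134%, 0.103% and 0.112% with APAP, and 0.114%, 0.120% and 0.107% in dmPGE2+APAP, so that every Control library lay below every other. After TMM scaling the same sums were 1088 ± 96.1 CPM (SD, n = 3) in Control, 1095 ± 166 with APAP and 1076 ± 47.2 in dmPGE2+APAP, and the groups overlapped. Scaling by library totals moved the median log2 change of all 360 tested miRNAs from -0.05 to 0.20 for APAP against Control and from -0.03 to 0.19 for dmPGE2+APAP against Control, and gave miR-29a-3p values of 0.26 and 0.22. Relative to that median the guide arm was near 0 under either scaling.

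miR-29c-3p, the guide from chromosome 1 with 1 base unlike miR-29a-3p, did not pass in any comparison either. It was 41.1, 34.9 and 29.9 CPM in Control, 38.7, 37.4 and 34.7 with APAP, and 39.4, 43.5 and 39.9 in dmPGE2+APAP. The dmPGE2+APAP libraries lay above all APAP libraries by a narrow gap and overlapped Control. The log2 change was 0.07 (SE 0.21) for APAP against Control, 0.14 (SE 0.22, 95% interval -0.32 to 0.60) for dmPGE2+APAP against APAP and 0.21 (SE 0.22) for dmPGE2+APAP against Control, and none passed (edgeR adjusted p 0.939, 0.923 and 0.695).

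miR-29b-3p, made from both loci, had a higher mean after APAP that did not pass the test. It was 22.3, 24.3 and 15.9 CPM in Control, 30.2, 24.8 and 29.4 with APAP, and 22.2, 30.7 and 22.9 in dmPGE2+APAP. All 3 APAP libraries lay above all Control libraries, with APAP replicate 2 just above Control replicate 2, and the counting intervals of those libraries overlapped (21.3 to 28.7 against 20.9 to 28.2 CPM). The log2 change was 0.43 (SE 0.25, 95% interval -0.09 to 0.96) for APAP against Control, with an edgeR adjusted p of 0.546. That value was 0.72 with library totals and 0.17 after all libraries were thinned to the depth of the shallowest (edgeR adjusted p 0.247 and 0.844). It was -0.18 (SE 0.25) for dmPGE2+APAP against APAP and 0.25 (SE 0.25) for dmPGE2+APAP against Control (edgeR adjusted p 0.923 and 0.687). Red-cell miRNAs ran the same way as miR-29b-3p in the comparisons that involve APAP alone. All 4 markers (miR-451a, miR-144-3p, miR-144-5p and miR-486a-5p) had log2 values above 0 for APAP against Control (median 1.07, 0 called) and below 0 for dmPGE2+APAP against APAP (median -1.30, with miR-451a called lower, log2 change -1.44, SE 0.25, edgeR adjusted p 0.00993), and their summed level was 431 to 543 CPM in Control, 731 to 1398 with APAP and 352 to 379 in dmPGE2+APAP. None of the 4 was at 0 in any library. For dmPGE2+APAP against Control they ran the other way from miR-29b-3p, with a median of -0.24 and 1 of 4 above 0. The highest miR-29b-3p level, in dmPGE2+APAP replicate 2 (30.7 CPM), stood beside a red-cell sum of 360 CPM. The 3 myeloid markers were also above 0 for APAP against Control (median 0.44) and below 0 for dmPGE2+APAP against APAP (median -0.86). For dmPGE2+APAP against Control their median was 0.11, with 2 of 3 above 0. They were at 0 reads in no library. Their sums were 118 to 228 CPM in Control, 168 to 309 with APAP and 147 to 233 in dmPGE2+APAP. The part of these cells in the miR-29b-3p difference was not tested.

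**Figure D2:**
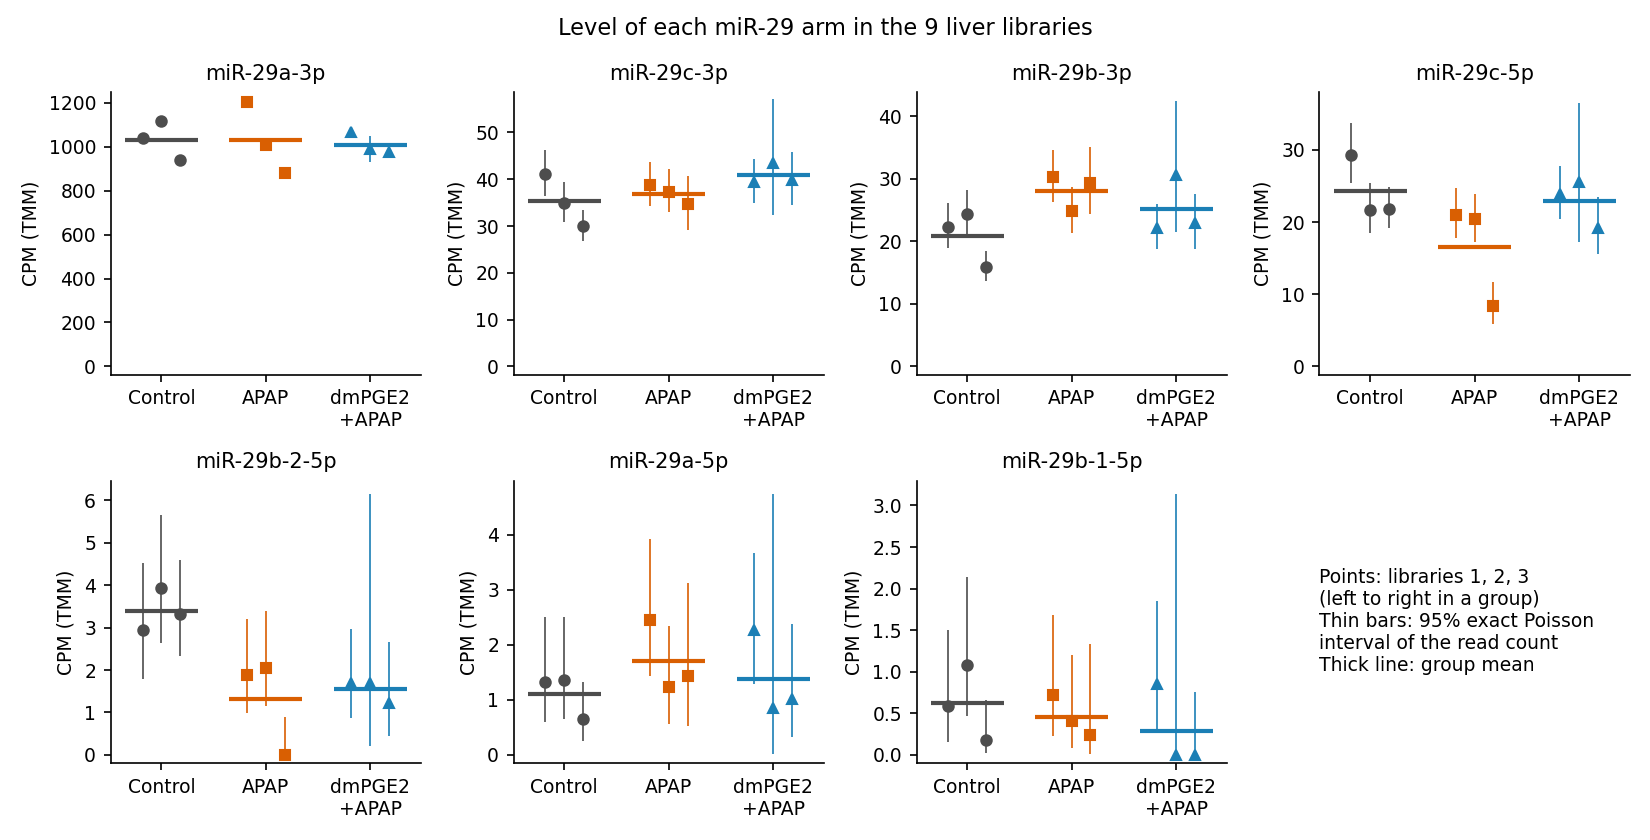
CPM of each of the 7 arms in each library, grouped by treatment. Points are libraries, thin bars are 95% exact Poisson intervals of the read count (counting error only) and thick lines are group means. miR-29a-3p and miR-29c-3p overlap Control in both treated groups. For miR-29b-2-5p the points of the 3 Control libraries lie above the other 6, with some of the counting intervals overlapping.

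The 5p arms from chromosome 1 had lower means after APAP, without passing. miR-29b-2-5p, the passenger of the Mir29b-2 hairpin, had 20, 29 and 36 reads in Control, 13, 15 and 0 with APAP, and 12, 2 and 6 in dmPGE2+APAP. These are 2.93, 3.94 and 3.32 CPM in Control, 1.87, 2.05 and 0 with APAP, and 1.70, 1.70 and 1.23 in dmPGE2+APAP. Every Control library was above every library of the other groups, but counting intervals of some of them overlapped. They were 0.206 to 6.16 CPM in dmPGE2+APAP replicate 2 and 1.15 to 3.39 in APAP replicate 2, against 1.79 to 4.53 in Control replicate 1. The 0 in APAP replicate 3 allows a level of up to 0.717 CPM by the limit of 3 reads (0.882 CPM by the two-sided exact Poisson interval that the plot of levels draws). The log2 change was -1.23 (SE 0.56, 95% interval -2.42 to -0.05) for APAP against Control and -1.16 (SE 0.61, -2.44 to 0.13) for dmPGE2+APAP against Control, with edgeR adjusted p of 0.462 and 0.483. These comparisons share the Control libraries. Between the treated groups it was 0.08 (SE 0.67, edgeR adjusted p 0.993). Without APAP replicate 3 the change against Control was -0.77 (edgeR adjusted p 0.811), and that between the treated groups turned to -0.32. Muscle miRNAs also had lower means than in Control: 0 of 3 markers (miR-1a-3p, miR-133a-3p and miR-499-5p) had log2 values above 0 in either comparison with Control (medians -1.12 and -1.54, 0 called). Their summed level was 481 to 2699 CPM in Control, 313 to 902 with APAP and 340 to 720 in dmPGE2+APAP, so those groups overlapped. None of the 3 was at 0 in any library. In Control replicates 1, 2 and 3 the sum was 2699, 1084 and 481 CPM, beside 2.93, 3.94 and 3.32 CPM of miR-29b-2-5p. The part of muscle RNA in the miR-29b-2-5p and miR-29c-5p differences was not tested.

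miR-29c-5p, the other arm of the Mir29c hairpin, stood at 29.3, 21.7 and 21.8 CPM in Control, 21.0, 20.4 and 8.37 with APAP, and 23.9, 25.6 and 19.2 in dmPGE2+APAP. APAP replicate 3, with 35 reads, was far below the other 8 libraries. The remaining APAP libraries lay just under the lowest Control library, and dmPGE2+APAP overlapped both groups. The log2 change was -0.53 (SE 0.31, 95% interval -1.19 to 0.13) for APAP against Control, 0.43 (SE 0.32) for dmPGE2+APAP against APAP and -0.10 (SE 0.32) for dmPGE2+APAP against Control, none passing (edgeR adjusted p 0.546, 0.896 and 0.894). Without APAP replicate 3 the first value was -0.22 (edgeR adjusted p 0.972) and the second was 0.17.

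The 5p arms from chromosome 6 were rare. miR-29a-5p had 9, 10 and 7 reads in Control, 17, 9 and 6 with APAP, and 16, 1 and 5 in dmPGE2+APAP, or 1.11 ± 0.402, 1.70 ± 0.651 and 1.38 ± 0.770 CPM (SD, n = 3), with overlapping groups. Its log2 change was 0.67 (SE 0.54) for APAP against Control, -0.12 (SE 0.57) for dmPGE2+APAP against APAP and 0.55 (SE 0.58) for dmPGE2+APAP against Control (edgeR adjusted p 0.690, 0.989 and 0.696). The 95% intervals were -0.48 to 1.82, -1.34 to 1.10 and -0.68 to 1.79, so all 3 include a log2 change of 1 and the second also includes -1. The first value was 0.31 without APAP replicate 1. miR-29b-1-5p had 4, 8 and 2 reads in Control, 5, 3 and 1 with APAP, and 6, 0 and 0 in dmPGE2+APAP.

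In all, 0 of the 6 tested arms were called in any comparison at an adjusted p under 0.05 (edgeR's quasi-likelihood test). Over all 360 miRNAs tested the call rate was 0.833% for APAP against Control, 0.278% for dmPGE2+APAP against APAP and 0.278% for dmPGE2+APAP against Control. At an unadjusted p under 0.05 edgeR had 1 arm, miR-29b-2-5p, for APAP against Control and 0 in the other comparisons, where 9.72%, 6.39% and 10.6% of all miRNAs stood under that value. DESeq2 and limma-voom also had only miR-29b-2-5p there and called 0 arms, but DESeq2 gave that arm no adjusted p and so could not call it. Libraries of APAP and Control did not overlap for 3 of the 6 arms (miR-29b-3p higher, miR-29b-2-5p and miR-29c-5p lower), against 16.7% of all miRNAs (8.61% higher, 8.06% lower). For dmPGE2+APAP against APAP this held for 1 arm (miR-29c-3p, higher) against 13.9% (5.83% higher, 8.06% lower), and for dmPGE2+APAP against Control for 1 arm (miR-29b-2-5p, lower) against 14.7% (6.11% higher, 8.61% lower). With library totals instead of TMM scaling, the groups overlapped for miR-29c-5p in APAP against Control and for miR-29c-3p in dmPGE2+APAP against APAP. miR-29a-5p and miR-29b-3p were then separate and higher for APAP against Control, where 16.4% of all miRNAs were higher in this way and 1.67% lower. All 3 guide arms were separate and higher for dmPGE2+APAP against Control, where 15.0% of all miRNAs were higher and 3.33% lower (3.61% and 9.17% for dmPGE2+APAP against APAP). miR-29b-2-5p stayed separate and lower than Control in both treated groups. The median log2 change of the 6 arms was 0.03, 0.03 and 0.09 in the 3 comparisons, beside -0.05, 4e-04 and -0.03 over all miRNAs tested.

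**Figure D3:**
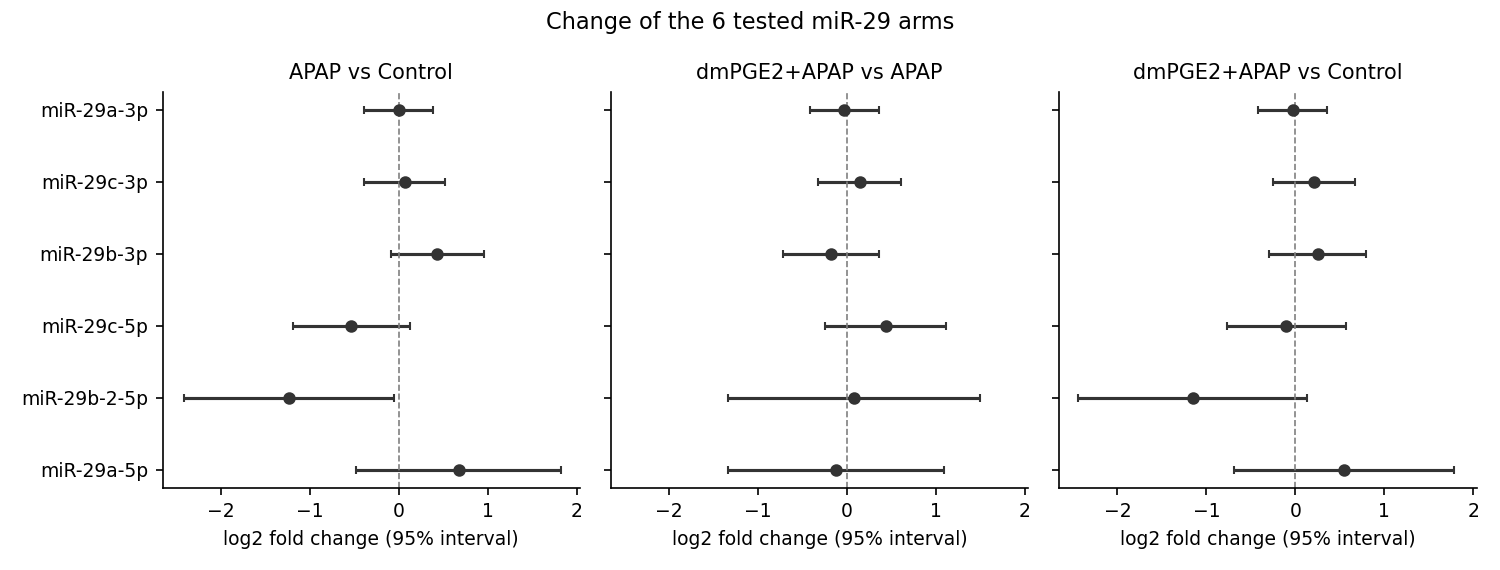
Log2 fold change of the 6 tested arms in the 3 comparisons from edgeR, with 95% intervals. The intervals of the 3p arms all include 0, and the widest belong to miR-29b-2-5p and miR-29a-5p, which have the fewest reads.

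The balance of the arms differed between hairpins more than between groups. From Mir29a, 0.106 ± 0.0323 reads of the 5p arm were counted per 100 of the 3p arm in Control (SD, n = 3), 0.163 ± 0.0404 with APAP and 0.134 ± 0.0679 in dmPGE2+APAP. From Mir29c, the number was 71.4, 62.3 and 72.9 in Control, 54.3, 54.6 and 24.1 with APAP, and 60.6, 58.8 and 48.2 in dmPGE2+APAP. In every library miR-29c-5p was less frequent than its partner but within 1 order of magnitude of it, while miR-29a-5p was a trace, and the libraries of the hairpins did not overlap in this ratio. In Mir29c all 3 Control libraries lay above the other 6, by a narrow gap from dmPGE2+APAP. Counting intervals overlapped there, at 50.8 to 76.1 in Control replicate 2 and 49.7 to 73.6 in dmPGE2+APAP replicate 1. The mean log2 difference was -0.73 for APAP against Control and -0.31 for dmPGE2+APAP against Control, each with an exact two-sided permutation p of 0.1, the smallest that 3 against 3 libraries allow, and 0.3 after Benjamini-Hochberg adjustment over 15 ratio tests. Without APAP replicate 3 the first difference was -0.34. Between the treated groups it was 0.42 (exact permutation p 0.5), and 0.03 without APAP replicate 3. For Mir29a the exact permutation p was 0.2, 0.5 and 0.6 for APAP against Control, dmPGE2+APAP against APAP and dmPGE2+APAP against Control.

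**Figure D4:**
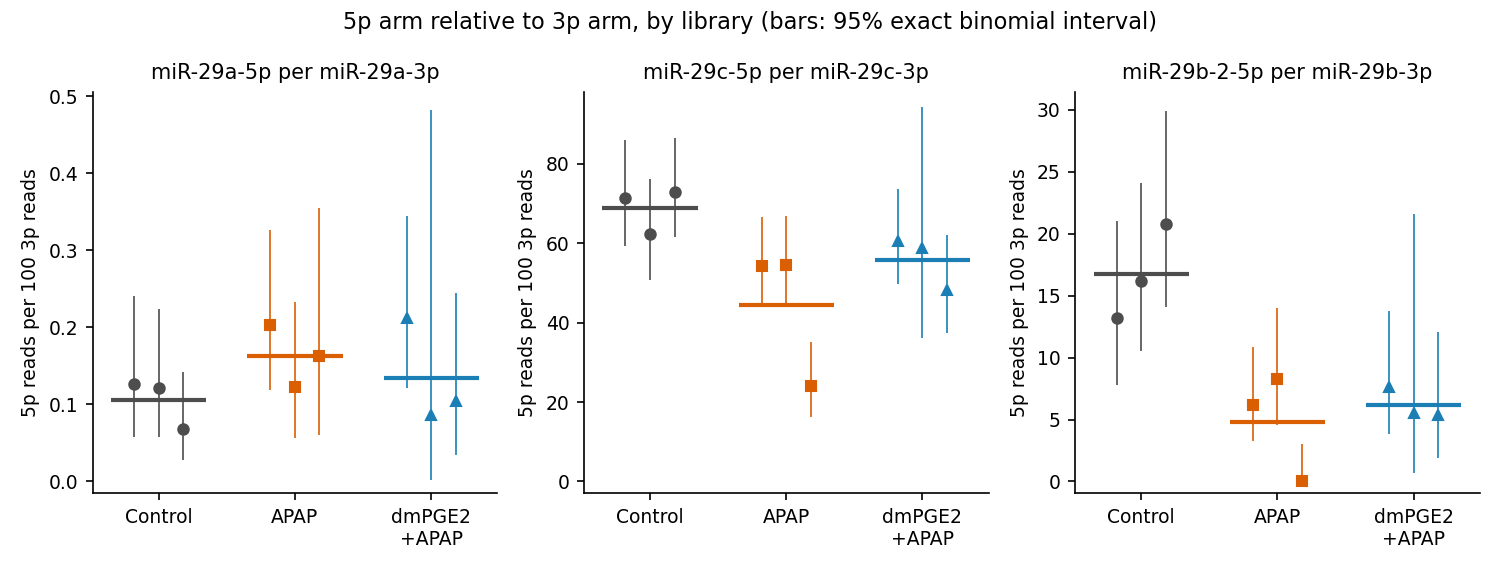
Reads of the 5p arm per 100 reads of the 3p arm in each library, for miR-29a, miR-29c and miR-29b-2 (whose 3p reads come from both loci). Points are libraries, thin bars are 95% exact binomial intervals (counting error only) and thick lines are group means. The vertical scales differ, from below 1 for miR-29a to between 24.1 and 72.9 for miR-29c.

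The guide arms varied together only loosely across the 9 libraries. Pearson's r of log2 CPM was 0.31 between miR-29a-3p and miR-29c-3p, 0.21 between miR-29a-3p and miR-29b-3p and 0.58 between miR-29c-3p and miR-29b-3p, while the partners miR-29c-3p and miR-29c-5p had 0.39. These are descriptions over 9 libraries that share scaling and group structure. Of 205 other miRNAs at a mean of 10 CPM or more, the most like miR-29a-3p were miR-148b-5p (r 0.79), miR-26b-5p (0.77), let-7d-5p (0.76), miR-7a-5p (0.74) and miR-98-5p (0.73). The most like miR-29b-3p were miR-144-3p, of red cells (0.92), miR-128-3p (0.87), miR-142a-5p, of blood cells (0.85), miR-22-5p (0.84) and miR-21a-3p (0.84). For miR-29c-3p they were the endothelial miR-126a-3p (0.79), miR-126b-3p and miR-126a-5p (0.78 each), miR-450a-5p (0.78) and miR-215-5p (0.77). Of these, miR-126b-3p and miR-126a-5p were rows of almost equal mean level and may hold the same reads. The most like miR-29c-5p were miR-139-5p (0.92), miR-30b-3p (0.73), miR-27a-5p (0.72), miR-145a-5p (0.64) and miR-425-5p (0.62).

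Other miRNAs known to act on liver matrix or stellate cells were not called either. Of 11 miRNAs known to limit matrix or stellate-cell activation, all tested, 0 were called in any comparison, where the call rates over all miRNAs (0.833%, 0.278% and 0.278%) also give no call in 11. Their median log2 change was -0.06, 0.05 and -0.20 for APAP against Control, dmPGE2+APAP against APAP and dmPGE2+APAP against Control, beside -0.05, 4e-04 and -0.03 over all miRNAs. The most abundant of these, the hepatocyte miR-122-5p and miR-30a-5p, had log2 values of -0.34 (SE 0.23) and -0.44 (SE 0.22) for APAP against Control. Of 11 known to promote it, 0 were called at the same rates, with medians of -0.01, 0.02 and 0.07 beside the same medians over all miRNAs. Its most abundant members, miR-21a-5p and miR-27b-3p, stood at -0.19 (SE 0.21) and 0.19 (SE 0.22) for APAP against Control. None of these passed in edgeR (adjusted p 0.618, 0.519, 0.791 and 0.791). For dmPGE2+APAP against Control, miR-30a-5p stood at -0.60 (SE 0.22, from 22972 ± 2327 to 15202 ± 3115 CPM, SD, n = 3) with the libraries separate. It did not pass either (edgeR adjusted p 0.336), and 8.61% of all miRNAs were separate and lower in that comparison. There miR-122-5p went from 226835 ± 84071 to 191257 ± 18315 CPM and miR-21a-5p from 218288 ± 25229 to 166119 ± 27499. The mean of miR-27b-3p was higher, at 8778 ± 1177 in Control and 12258 ± 3543 in dmPGE2+APAP. The stellate and mesenchymal markers miR-143-3p, miR-145a-5p, miR-199a-3p, miR-199a-5p and miR-214-3p were in every library and summed to 25914 to 41665 CPM in Control, 24540 to 37136 with APAP and 25801 to 41602 in dmPGE2+APAP, so the groups overlapped.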

How the data were processed

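The assay was small-RNA sequencing of 9 libraries from liver. The deposited table holds whole read counts per miRNA and TPM values, per the file headers; the deposited TPM is each count over the library total scaled to 1000000, with no length term. The submitters' processing notes name Bowtie and mm10. Versions, mismatch and strand settings, the counter and the miRNA annotation were not given in the sources used here. Column names match the APAP and dmPGE2+APAP labels. The remaining columns carry another prefix and were taken as Control, since no other group remained, and 0 value columns went unused.

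Counts were fitted in R 4.3.3 with edgeR 4.0.16 (TMM, filterByExpr with minimum count 10 and minimum total 15, robust quasi-likelihood test), all 9 libraries in 1 model with 3 group means. p-values were adjusted by Benjamini-Hochberg over all 360 miRNAs tested, with a threshold of 0.05. SEs come from the F statistic. Alternatives used DESeq2 1.42.0, limma 3.58.1 (voom, or log2 of TPM + 1), other scaling and filters, thinning to 1038799 reads, and each library left out. The scripts were tested on simulated data. Ratios within a library were compared with exact permutation tests. Likeness is Pearson's r of log2 CPM (prior count 2).

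All 7 members were named by rule. Beside them the text names the 5 likest miRNAs of each member at 10 CPM or more, and the 2 most abundant members of each matrix list, since none was called. The members and lists were chosen with earlier results of these data known. No row of the table had counts within 5% of those of a member with at least 100 reads.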

Additional observations from a re-analysis of the deposited data

How the results depend on the processing

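No change of a miR-29 arm passed in any of the 325 alternative values that could be computed over 18 changes. miR-29a-5p and miR-29b-2-5p were not tested after thinning or at a mean of 10 CPM, miR-29a-5p was not tested with only the 2 groups fitted, and DESeq2 gave them no adjusted p for APAP against Control. Of the 18 changes, 8 kept their sign throughout. The near-zero value of miR-29a-3p turned positive for APAP against Control with library totals (0.26), RLE factors (0.026), DESeq2 (0.026), a mean of at least 10 CPM (0.010), thinning (0.020), log2 TPM (0.25) and only the 2 groups fitted (0.017). For dmPGE2+APAP against Control it did so with library totals (0.22), RLE factors (0.011), DESeq2 (0.012) and log2 TPM (0.22). There miR-29c-5p turned to 0.14 with library totals and 0.16 with log2 TPM, and miR-29b-3p to -0.034 after thinning, which also turned miR-29c-3p to -0.068 for dmPGE2+APAP against APAP. The cause was not tested.

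With 1 library left out, values for APAP against Control ranged from -0.11 to 0.11 for miR-29a-3p and from -0.019 to 0.23 for miR-29c-3p. For dmPGE2+APAP against APAP they were -0.090 to 0.10 for miR-29a-3p, -0.79 to 0.26 for miR-29a-5p and -0.32 to 0.49 for miR-29b-2-5p. For dmPGE2+APAP against Control they were -0.063 to 0.088 for miR-29a-3p, -0.11 to 0.88 for miR-29a-5p and -0.14 to 0.14 for miR-29c-5p. Besides the values without APAP replicate 3 given with the results, these kept their sign but moved by over 1.5 times: miR-29a-5p (0.31 to 0.90) for APAP against Control, miR-29b-3p (-0.28 to -0.093) for dmPGE2+APAP against APAP, and miR-29b-3p (0.11 to 0.44) and miR-29c-3p (0.13 to 0.42) for dmPGE2+APAP against Control.

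The number of miRNAs called in all, 3 for APAP against Control, became 8 with library totals, 7 with RLE factors, 13 with DESeq2, 9 with no filter, 0 at a mean of 10 CPM, 0 after thinning, 8 with log2 TPM and 7 with only the 2 groups fitted, and 0 to 9 with a library left out (0 when Control replicate 2 or replicate 1 or 3 of APAP was left out, 1 without Control replicate 1 or 3, and 6 to 9 without any other). The 1 called for dmPGE2+APAP against APAP became 8 with DESeq2, 9 with no filter and 0 with only the 2 groups, and 0 to 5 with a library left out (0 without APAP replicate 1 or dmPGE2+APAP replicate 2, 5 without APAP replicate 2, 4 without dmPGE2+APAP replicate 1). The 1 called for dmPGE2+APAP against Control became 2 with library totals, RLE factors, DESeq2 or no filter, and 0 with limma-voom, at a mean of 10 CPM or after thinning (1 to 2 with a library left out, 2 being without APAP replicate 3 or dmPGE2+APAP replicate 1). The Control share of the guide arms, 0.0967%, became 0.109% over TMM library sizes.

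Same-numbered libraries did not deviate together: 2 of 9 pairs had a correlation above 0.1 (range -0.25 to 0.17), and 2 of 9 libraries correlated best with their own number. With the replicate number as a block, 0 miRNAs were called for APAP against Control, 2 for dmPGE2+APAP against APAP and 1 for dmPGE2+APAP against Control, and 0 arms in each.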

Other observations

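These ratios were chosen after the values were seen. Reads of miR-29b-2-5p per 100 of miR-29b-3p were 13.2, 16.2 and 20.8 in Control, 6.19, 8.29 and 0 with APAP, and 7.64, 5.56 and 5.36 in dmPGE2+APAP. Every Control library lay above the other 6, as in the ratio of miR-29c-5p to miR-29c-3p, whose hairpin is the neighbour of Mir29b-2. The mean difference from Control was -11.9 reads per 100 in APAP and -10.5 in dmPGE2+APAP, each with an exact two-sided permutation p of 0.1 (n = 3 each, the smallest possible; 0.3 adjusted over 15 tests). Neither p is support of its own, since miR-29b-2-5p already lay below Control in both treated groups. With APAP, miR-29b-3p also lay above Control in every library, so the ratio for APAP against Control had to separate. Without APAP replicate 3 the mean difference for APAP was -9.48 reads per 100. These numbers rest on 133 reads of miR-29b-2-5p in all.

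Reads of miR-29b-3p per 100 of miR-29a-3p were 2.14, 2.18 and 1.70 in Control, 2.51, 2.46 and 3.34 with APAP, and 2.08, 3.10 and 2.35 in dmPGE2+APAP. The APAP libraries lay above all Control libraries without any scaling between libraries (log2 difference 0.46, exact two-sided permutation p 0.1, adjusted 0.3), and dmPGE2+APAP overlapped both. Counting intervals overlapped, at 1.87 to 2.53 in Control replicate 2 and 2.11 to 2.85 in APAP replicate 2. That p is no support of its own, since miR-29b-3p already lay above Control with APAP.

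Reads that separate the miR-29b hairpins by their 5p arms came mostly from Mir29b-2 on chromosome 1. miR-29b-2-5p had 133 reads over the 9 libraries and miR-29b-1-5p had 29, and the former was the more frequent in 8 of 9 libraries. The exception was APAP replicate 3, with 0 and 1 reads. In Control the counts were 20 against 4, 29 against 8 and 36 against 2. The proportion of 5p to 3p reads differed widely between Mir29a and Mir29c, so 5p counts do not show which locus the miR-29b-3p reads came from.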
